A study of Mus musculus with 2 samples.

Results

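Nucleoporins and nuclear transport receptors were the genes examined, in primary epidermal keratinocytes of mice with an overactive Smad1 and of wild-type mice. The genes were taken by name. They were all gene spots on both arrays whose name was Nup followed by a number, began with Kpna, Kpnb, Xpo, Ipo or Tnpo, or was Ran, Rangap1, Ranbp1, Ranbp2 or Cse1l. This gave 47 genes, 20 with a Nup name and 27 others, of 28090 gene names on the array. They were read by 101 probes of 60 bases in 119 spots per array, and 14 of the genes had 1 probe only. Of the 47 genes, 40 had a probe well above background on both arrays in at least 1 channel. These 40 are described below beside the 11748 genes that passed the same filter.

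K14-caSmad1 mice are transgenic animals of the FVB/NJ strain that overexpress a constitutively active Smad1, a transcription factor that acts in bone morphogenetic protein signalling. K14 is the name of keratin 14, a keratin of basal epidermal cells. The wild-type mice were of the same strain, and both groups were taken at day 20 after birth. K14-caSmad1 RNA was labelled with Cy5 and wild-type RNA with Cy3 on both of 2 two-colour arrays, without a dye swap, so for any probe the dye and the genotype cannot be told apart. All RNA went through 1 round of amplification before labelling. The number and sex of the animals behind each RNA, and the number of transgenic lines, are not given in the sources used here.

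Spots well above background numbered 14412 on replicate 1 and 15800 on replicate 2 for K14-caSmad1, against 15570 and 16144 for wild type, and 0 were saturated. The labels call the arrays biological replicates. The log2 ratios of the arrays had a Pearson correlation of 0.993 over all genes tested, which are not independent of each other. Over 12290 probes with 1 spot the SD of the difference between arrays was 0.0946, against 0.103 predicted from repeated spots of a probe on 1 array. The arrays therefore differed by no more than spot noise on these probes, and both were counted as 1 sample. Over 86 repeated probes the SD was 0.055, against 0.0339 predicted. Values are given per array, the calls are by size alone, and no error between animals can be given.

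Traffic between nucleus and cytoplasm passes through the nuclear pore complex. Its scaffold nucleoporins build the ring-shaped frame, and nucleoporins with phenylalanine-glycine (FG) repeats fill the channel and bind passing receptors. Importin alphas hold a cargo's nuclear localization signal and are carried in by importin beta (Kpnb1), while other importin betas bind cargo directly and exportins carry cargo out. The small GTPase Ran gives this traffic its direction, since its GTP form releases imported cargo inside the nucleus and is needed by exportins to bind theirs. Smad proteins themselves shuttle through the pore with such receptors, among them Ipo7, Ipo8 and Xpo1.

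The 7 probes shown carry the largest values or the disagreements described below: 2 for Kpna2, the gene with the highest ratio, 2 for Nup50, the gene with the lowest, and 3 for Ipo5 and Ipo4, whose probes differed. They are given 5′ to 3′ as deposited with the arrays, with positions on mouse build mm9 and counted along the transcript, both as the scanner files state them. Where an interval is longer than the probe, the probe spans a splice junction in the files' placement. The exon or untranslated region that a probe lies in was not looked up, since no annotation of that build was used here.
Kpna2 probe at transcript position 1742 (chr11:106850179-106850238, minus strand): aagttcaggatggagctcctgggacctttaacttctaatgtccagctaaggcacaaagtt
Kpna2 probe at transcript position 1183 (chr11:106852064-106852123, minus strand): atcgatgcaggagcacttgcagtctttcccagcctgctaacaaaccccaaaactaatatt
Nup50 probe at transcript position 1572 (chr15:84770217-84770276, plus strand): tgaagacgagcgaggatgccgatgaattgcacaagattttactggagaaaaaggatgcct
Nup50 probe at transcript position 1254 (chr15:84767941-84768789, plus strand): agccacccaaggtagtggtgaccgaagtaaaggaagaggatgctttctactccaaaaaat
Ipo5 probe at transcript position 3143 (chr14:121345317-121345376, plus strand): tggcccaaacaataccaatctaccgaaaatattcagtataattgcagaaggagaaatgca
Ipo4 probe at transcript position 3239 (chr14:56244778-56244837, minus strand): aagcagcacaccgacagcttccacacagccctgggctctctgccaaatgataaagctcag
Ipo4 probe at transcript position 433 (chr14:56253027-56253171, minus strand): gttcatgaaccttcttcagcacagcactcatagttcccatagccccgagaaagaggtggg

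Most nuclear transport genes gave more signal in K14-caSmad1 keratinocytes than in wild type. The median log2 ratio of K14-caSmad1 over wild type was 0.54 over the 40 genes, with 0.50 on array 1 and 0.57 on array 2, against -0.03 over all genes tested. Above 0 were 29 of the 40 and below 0 were 11, where 47.7% of all genes tested were above and 52.3% below. The ratios reached from -1.14 for Nup50 to 1.45 for Kpna2, which ranked 116th of 11748 genes from the top. In bulk RNA, a difference in the share of cells that hold a transcript and a difference in RNA per cell cannot be told apart.

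At least 1.5-fold higher on both arrays were 16 of the 40 genes, where 13.2% of all genes tested were. At least 1.5-fold lower on both were 4, where the share of all genes was 19.5%. At 2-fold the counts were 4 higher, against 4.09% of all genes, and 1 lower, against 9.81%. The 4 were Kpna2, Nup153, Ran and Nup85, and the 1 was Nup50, which was no longer 2-fold lower without background correction (-0.96), with median centring (-0.83), with all spots in the background fit (-0.88) or with averaged probes (-0.60). A limma fit of the 2 arrays, which measures only how well they repeat, called 28 of the 40 higher and 9 lower after Benjamini-Hochberg adjustment over all genes at 0.05, where 40.8% and 46.3% of all genes were called. Both arrays lay on the same side of 0 for 39 of the 40, Ipo8 being the exception, and their log2 ratios differed by less than 0.1 for 33.

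**Figure D1:**
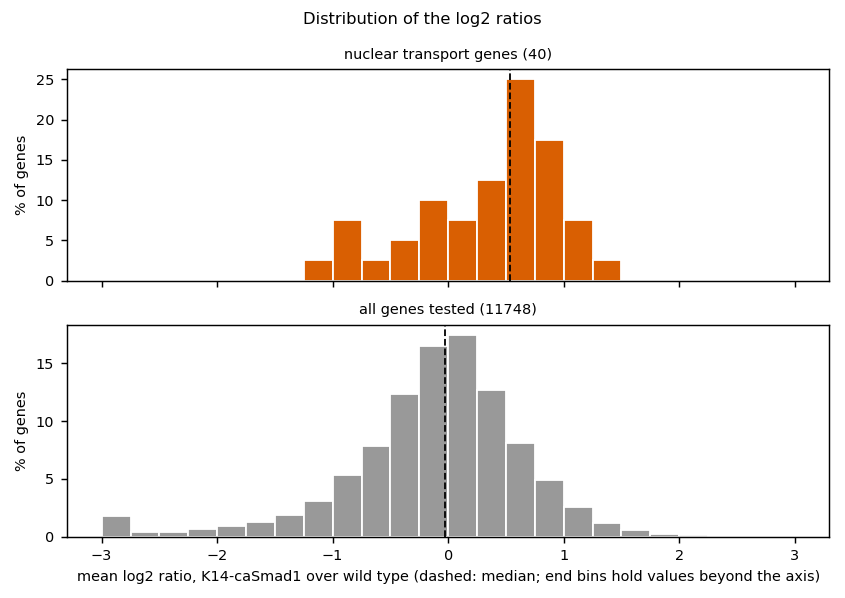
Percent of genes (vertical axes) by mean log2 ratio of K14-caSmad1 over wild type (horizontal axis) for the 40 nuclear transport genes (top) and for all 11748 genes tested (bottom), with dashed lines at the medians and end bins that hold values beyond the axis. The bars of the transport genes crowd to the right of 0, with a median of 0.54, against -0.03 over all genes.

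**Figure D2:**
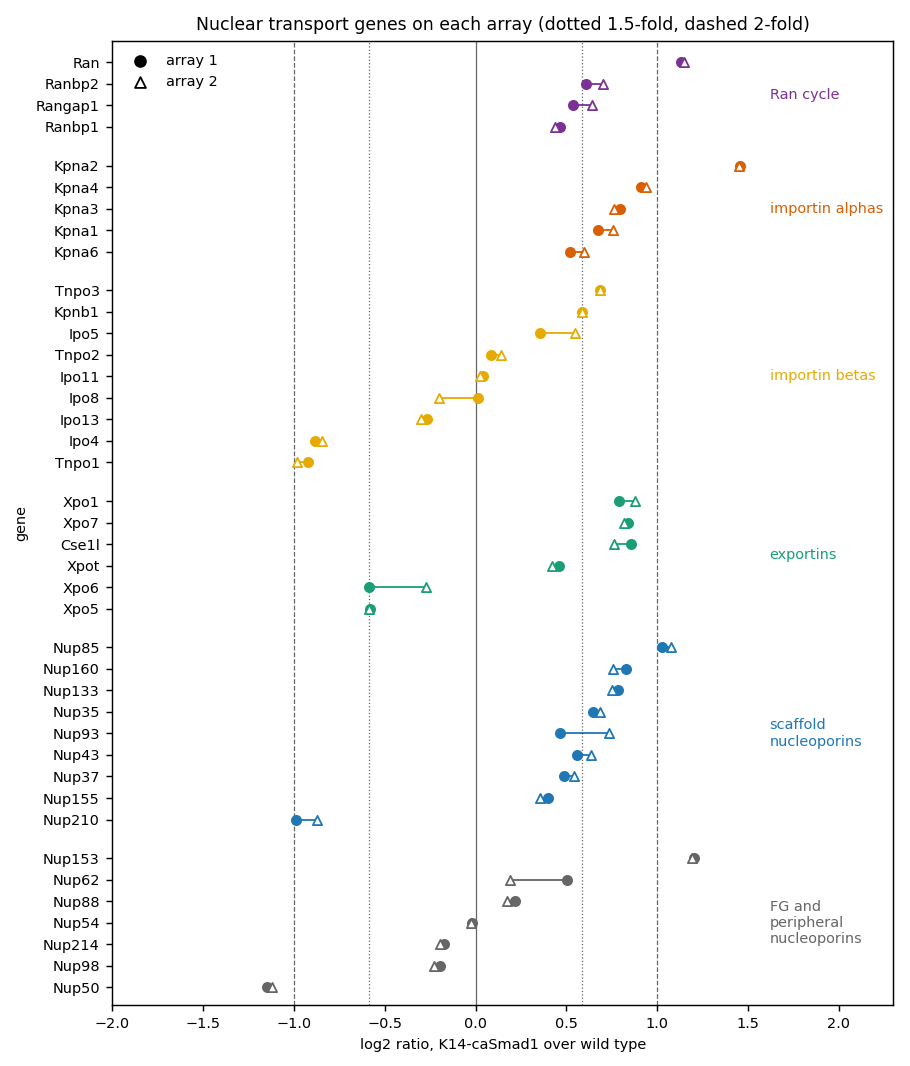
Log2 ratio of K14-caSmad1 over wild type on array 1 (filled circles) and array 2 (open triangles) for each of the 40 measured genes, grouped by role, with dotted lines at 1.5-fold and dashed lines at 2-fold. All importin alphas and Ran cycle genes lie above 0, while the importin betas and the FG and peripheral nucleoporins lie on both sides.

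All 4 genes of the Ran cycle were higher in K14-caSmad1 keratinocytes, and the median of their log2 ratios was 0.62. Past 1.5-fold on each array were 2 of them, where 13.2% of all genes tested were higher by that size. Ran had background-corrected, loess-normalized intensities of 38443 and 35400 in the K14-caSmad1 channel of arrays 1 and 2, against 17569 and 15941 in the wild-type channel. Its log2 ratios were 1.13 and 1.15, a 2.20-fold difference. Ran was thus higher by nearly the same factor on both arrays. Ranbp2, the nucleoporin of the cytoplasmic filaments that binds Ran and ligates SUMO, is counted with the Ran cycle here. It had 1503 and 3302 in K14-caSmad1 against 987 and 2030 in wild type. Intensities of the 2 arrays differ more than the groups do for this gene, so only the ratios within an array are compared, 0.61 and 0.70. Rangap1, which makes Ran hydrolyse its GTP, had log2 ratios of 0.54 and 0.64, and lay just below 1.5-fold on array 1. Ranbp1, a cytoplasmic cofactor of Rangap1, had 0.47 and 0.44. Cse1l, which returns importin alphas to the cytoplasm and is counted with the exportins here, had 0.86 and 0.76.

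Every one of the 5 importin alphas was higher in K14-caSmad1 keratinocytes, with a median log2 ratio of 0.78. At least 1.5-fold higher on both arrays were 4 of them, against 13.2% of all genes tested. Kpna2, importin alpha 1, is an adapter for classical nuclear localization signals that is abundant in dividing cells. It had 19767 and 18098 in the K14-caSmad1 channel, against 7206 and 6617 in the wild-type channel. Its log2 ratios were 1.46 and 1.45, a 2.74-fold difference. Both channels were well above background on both arrays. The other importin alphas followed at smaller ratios: Kpna4 had 2312 and 2133 in K14-caSmad1 against 1229 and 1113 in wild type, with log2 ratios of 0.91 and 0.94. Kpna3 had 3363 and 2694 against 1938 and 1587 (0.80 and 0.76). Kpna1 had 1829 and 1774 against 1144 and 1050 (0.68 and 0.76). In all of these the K14-caSmad1 channel was the brighter within each array. Kpna6 was the smallest of the group, at 0.52 and 0.60, and crossed 1.5-fold on array 2 only.

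The importin betas showed no shared direction. Of 11 genes 9 were measured, with a median log2 ratio of 0.03 that became -0.26 when the tested probes of a gene were averaged. At least 1.5-fold higher were 2 and at least 1.5-fold lower 2, where 13.2% and 19.5% of all genes tested were. The counts are too small to be compared with those shares. Tnpo3, the receptor that imports serine- and arginine-rich splicing factors, had 15246 and 13420 in K14-caSmad1 against 9486 and 8328 in wild type, with log2 ratios of 0.68 and 0.69. Kpnb1, the partner of the importin alphas, had 3667 and 3293 against 2440 and 2189. Its log2 ratio was 0.59 on each array, right at the 1.5-fold limit, and it turned to -0.26 when its probes were averaged. Tnpo1 and Ipo4 lay at the other end. Tnpo1, transportin 1, which imports hnRNP A1 and other proteins with a proline-tyrosine signal, had 5860 and 4760 in K14-caSmad1 against 11113 and 9402 in wild type. Its log2 ratios were -0.92 and -0.98, a 1.94-fold lower level. Ipo4, known to carry ribosomal proteins and histones, had 1743 and 1602 against 3212 and 2879, with -0.88 and -0.85.

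The remaining measured importin betas lay closer to 0. Ipo11 was among the 3 genes nearest to 0, with 2517 and 2425 in K14-caSmad1 against 2445 and 2380 in wild type and log2 ratios of 0.04 and 0.03. Ipo8, also among the 3, had 0.01 on array 1 and -0.20 on array 2. The arrays do not settle the direction of this probe, the brightest, while its other tested probe, read in 10 spots, had 0.29 and 0.33. The others are given for completeness: Ipo5 had 0.36 and 0.55, Tnpo2, the close relative of Tnpo1, had 0.08 and 0.14, and Ipo13, a receptor that carries cargo both ways, had -0.27 and -0.30.

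Exportins lay on both sides of 0, with the larger differences above it. Of 7 genes 6 were measured, with a median log2 ratio of 0.63. At least 1.5-fold higher on both arrays were 3 and lower 0, against 13.2% and 19.5% of all genes tested. Xpo1, the exportin for leucine-rich nuclear export signals, had 3016 and 5761 in K14-caSmad1 against 1745 and 3128 in wild type. The level of this probe differed between the arrays in both channels, but within each array the ratio was similar, 0.79 and 0.88. Xpo7, an exportin with a broad set of cargoes, had 7129 and 6101 against 3987 and 3454 (0.84 and 0.82). Cse1l had 3646 and 3238 against 2013 and 1908. For Xpo7 and Cse1l the K14-caSmad1 channel was the brighter within each array. Xpot, the exportin of transfer RNA, had log2 ratios of 0.46 and 0.42. The exportins below 0 were Xpo5, the carrier of microRNA precursors, with -0.58 and -0.59, and Xpo6, the exportin of actin, with -0.59 and -0.27. Xpo5 was just short of 1.5-fold on array 1, and the arrays disagreed on the size for Xpo6; both are named for completeness.

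Scaffold nucleoporins were mostly higher, with 8 of the 9 measured of 13 above 0 and a median log2 ratio of 0.60. At least 1.5-fold higher were 4, and 1 was lower, against 13.2% and 19.5% of all genes tested. Nup85, Nup160 and Nup133 belong to the Y complex, the outer ring of the pore. For Nup85 the intensities were 6649 and 11047 in K14-caSmad1 against 3261 and 5237 in wild type, with log2 ratios of 1.03 and 1.08. Nup160 had 1609 and 1394 against 907 and 823 (0.83 and 0.76). Nup133 had 3447 and 2955 against 2002 and 1755 (0.78 and 0.75). Within each array the K14-caSmad1 channel was the brighter for all of them. The other Y complex genes of the name rule that were measured were dim, Nup43 and Nup37. Nup43 was below the detection limit in wild type on either array and was at least 1.48-fold higher in K14-caSmad1. Nup37 had log2 ratios of 0.49 and 0.54. With the scanner's processed signals these genes had 1.87 and 1.40 and passed 1.5-fold. Y complex genes outside the name rule were well above background in both channels: Seh1l had 0.45 and 0.59, Ahctf1 had 0.29 and 0.26, and Sec13 had -0.02 and 0.02.

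In the inner ring, Nup35 had 2604 and 2154 in K14-caSmad1 against 1666 and 1337 in wild type, with log2 ratios of 0.64 and 0.69. Nup93, a linker of the inner ring, had 0.47 and 0.73, so that it passed 1.5-fold on array 2 only. Nup155, which joins the ring to the membrane, had 0.40 and 0.36. The scaffold gene that went the other way was Nup210, a pore protein that spans the nuclear membrane. It had 430 and 417 in K14-caSmad1, well above background on 1 of the arrays, against 854 and 765 in wild type. Its log2 ratios were -0.99 and -0.87, and their mean moved to -1.94 with the processed signals.

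The FG and peripheral nucleoporins held the widest range, from -1.14 to 1.20, around a median of -0.02 whose sign changed with the processing, from 0.0019 with averaged probes to 0.28 with median centring. All 7 were measured, and Ranbp2 is not among them, since the groups of nucleoporins hold Nup names only. Nup153 and Nup50, which are partners in the basket on the nuclear side of the pore, lay at opposite ends. Nup153 had 6864 and 5917 in K14-caSmad1 against 2985 and 2586 in wild type, with log2 ratios of 1.20 and 1.19, a 2.29-fold difference. Nup50, which also binds importin alpha and helps to release its cargo, had 1621 and 1616 against 3599 and 3521. Its log2 ratios were -1.15 and -1.12, a 2.20-fold lower level. Within each array the channels differed by over 2-fold for both genes.

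Between these ends lay the other FG and peripheral nucleoporins, among them those of the central channel and the cytoplasmic side. Nup54, of the central channel, was the gene nearest to 0, with 1459 and 1374 in K14-caSmad1 against 1481 and 1401 in wild type and log2 ratios of -0.02 and -0.03. The rest are named for completeness. Nup62, its partner, had 0.50 and 0.19, so the arrays disagreed on its size. Nup88 and Nup214, partners on the cytoplasmic side, had 0.22 and 0.18 and -0.17 and -0.20. The other tested probe of Nup88 had -0.17 and -0.21, so the direction of Nup88 depends on the probe. Nup98, which also takes part in mRNA export, had -0.19 and -0.23.

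No probe was well above background in any channel of either array for 7 genes. These were Ipo7, Ipo9, Nup107, Nup188, Nup205, Nup210l and Xpo4, with 1 to 3 probes each. Nup107 belongs to the Y complex, and Nup188 and Nup205 to the inner ring, so the scaffold was measured only in part. Ipo7, one of the receptors known to carry Smad proteins, gave no usable level here. A dim probe does not show that a gene is silent.

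Different probes of a gene often gave different ratios. Of the 40 genes 12 had several tested probes, and in 7 of these the probes lay on opposite sides of 0. Kpnb1 and Ipo5 had probes beyond 0.25 on both sides, which is 2 of 12 genes or 16.67%, against 293 of 2820 genes (10.39%) over the whole array. The brightest probe of Kpnb1, at transcript position 5698, had a mean log2 ratio of 0.59, while the probe at 3950 had -1.10 and was at least 1.39-fold lower in K14-caSmad1, where it was not well above background. The Ipo5 probe printed above, at position 3143, had -1.02, against 0.45 for the brighter probe at 4214, and the mean of both was -0.28. For these genes of the import machinery the direction depends on the probe.

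For Nup50 the probes at positions 1254 and 1572, both printed above, had -0.78 and -1.14, the second over 10 spots, and the probe at 3871 had 0.13. The lower level of Nup50 thus rested on the upstream probes. For Ipo4 the probe at 3239 had -0.86 and the probe at 433 had 0.18, the wild-type channel of which was dim. The Kpna2 probes went the same way, at 0.90 for position 1183 and 1.45 for position 1742. Nup160 had 0.04 at position 4748 and 0.79 at 5263. The probe at 4748 had 0.27 on array 1 and -0.18 on array 2, and was well above background in K14-caSmad1 on 1 array only. Nup54, the gene nearest to 0 by its brightest probe, had a mean of 0.63 with its other probe, from 0.40 on array 1 and 0.86 on array 2. Of the 53 tested probes of all these genes 38 lay above 0 and 15 below. Which transcripts the probes read apart was not tested.

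**Figure D3:**
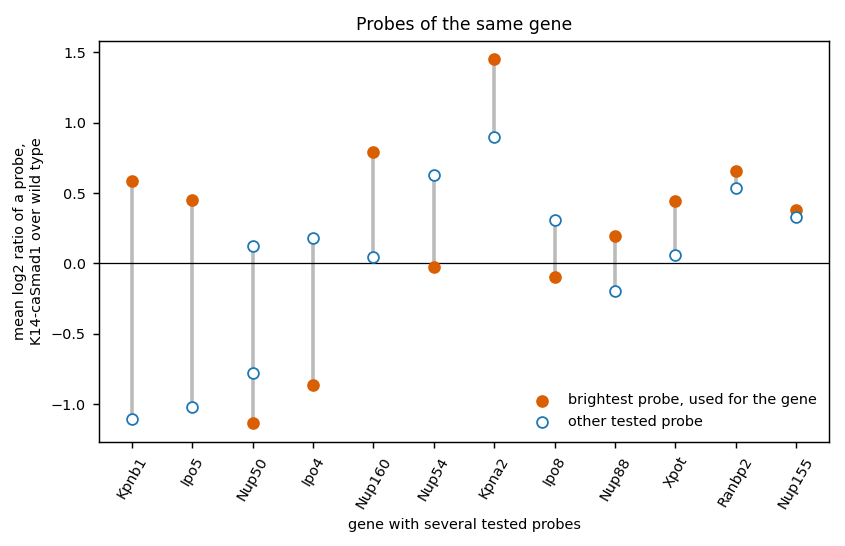
Mean log2 ratio of K14-caSmad1 over wild type (vertical axis) of every tested probe of the 12 genes with several, 1 column per gene, with filled circles for the brightest probe and open circles for the others. Kpnb1 and Ipo5 spread the most, by 1.69 and 1.47 log2 units, with probes on both sides of 0.

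In neighbouring pathways the list medians lay between 0.06 and 0.36. Beside the counts given here, 13.2% of all genes tested were at least 1.5-fold higher on both arrays and 19.5% lower. Of 11 pore proteins outside the name rule all were measured, with a median log2 ratio of 0.06, 0 at least 1.5-fold higher and 1 lower. That gene was Aaas, which codes for the peripheral pore protein aladin, at -1.05 and -1.03. These counts rest on the brightest probes. Tpr had a mean of 0.04, but 1.18 with its other probe. Gle1 had a mean of 0.11, but -0.48 and -0.13 with its other probes. Of 10 transport adapters and Ran regulators 8 were measured, with a median of 0.16 and none past 1.5-fold in either direction. Of 23 mRNA export genes 18 were measured, with a median of 0.24, and 2 were at least 1.5-fold higher and 0 lower. These were Alyref, the adapter that loads the export receptor on spliced mRNA (1.59 and 1.61), and Ncbp2, the small cap-binding subunit (0.80 and 0.74), whose other probe had 0.15.

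The SUMO pathway, which attaches small proteins to others and in which Ranbp2 acts as a ligase, gave a median of 0.36 over 13 of 16 genes, with 5 at least 1.5-fold higher and 0 lower. Sumo2 had log2 ratios of 1.03 and 1.04, and Uba2, a subunit of the SUMO-activating enzyme, had 0.98 and 0.96. Of 18 genes of the nuclear lamina and envelope 15 were measured, with a median of 0.15, 5 higher and 2 lower by 1.5-fold. Beside the counts of both lists, 13.2% of all genes tested were higher and 19.5% lower by that size. Sun2, which links the envelope to the cytoskeleton, was the lowest of the lamina and envelope genes at -1.67 and -1.74. Lemd3, an inner membrane protein that binds Smads, had 0.93 and 0.82, but its other probe had -0.93. Syne2 had 0.81 and 0.82, and 0.17 with its other probe. None of these lists was tested against another.

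**Figure D4:**
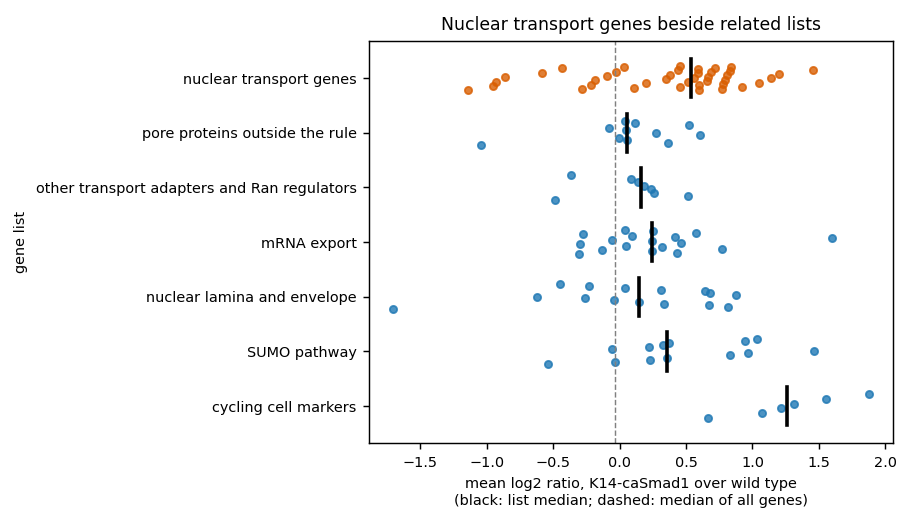
Mean log2 ratio of K14-caSmad1 over wild type (horizontal axis) of every measured gene in the nuclear transport group, in 5 related lists and in the cycling cell markers, with black bars at list medians and a dashed line at the median of all genes. The transport genes have a median of 0.54, the related lists medians from 0.06 to 0.36, and the cycling markers 1.26.

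Other cell states differed between the same RNAs. Of 8 cycling cell markers 6 were measured. All 6 were at least 1.5-fold higher in K14-caSmad1 on both arrays, against 13.2% of all genes tested. The median log2 ratio of these markers was 1.26, with a range from 0.67 for Mcm2 to 1.88 for Mcm4. All 6 basal keratinocyte markers were measured in both channels, with a median of 1.28, as were the 4 spinous markers, with 1.27. The spinous marker Krt10 had 0.01 and 0.03, but 2.29 with its other probe. Among basal markers, Trp63 had a mean of 1.69 and Col17a1 0.73, but -0.78 and -0.11 with their other probes. The other probe of Itgb4 had 0.86, and that of the spinous marker Dsc1 0.58. All 5 hair shaft markers were lower, with a median of -4.69. Of 5 melanocyte markers 4 were measured, Pmel at -1.28 and Dct at -1.04, while Mlana (at least 1.89-fold lower) and Mitf (at least 1.74-fold lower) were dim in K14-caSmad1. The 3 of 4 fibroblast markers that passed the filter were not above background in K14-caSmad1. Both measured T cell markers and all 3 Langerhans markers were above 0 by their brightest probes, with medians of 0.57 and 0.14. The other probe of Thy1, a T cell marker, had -0.40. The part of these differences in the ratios of the transport genes was not tested.

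Promoter windows of 300 bases that end 50 bases past the gene start were taken from RefSeq (assembly GRCm38.p6) for 37 of the 47 genes, 44 windows in all. They were rich in CpG: the median window had 65.0% G and C and 28 CpG, against 52.67% and 7 over all 32851 windows of the table. Motifs were chosen after the sequences were seen and counted separately on both strands, overlaps allowed. CCAAT was in 22 of the 44 windows, against 37.41% of all. The windows of Ipo9 overlap, as do those of Nup37, and the same CCAAT match counts in both windows of each gene. CACGTG, the E-box, was in 20.45% against 7.15%, and CGCATGCG, the core of the site bound by NRF1, in 11.36% against 1.872%. GGCGCC, a GC-rich element known to be bound by Smads of the BMP pathway, was in 22.73% against 11.87%. CACGTG, CGCATGCG and GGCGCC each hold a CG, and no share over windows of like CpG content was counted. The part of base composition in these shares was not tested. GTCTAGAC, the Smad palindrome, was in 0 of 44, against 0.2131% of all, and TTTCGCGC, an E2F site, was in 1 of 44, against 0.3227%. Windows were found for 10 of the 16 genes at least 1.5-fold higher and for all 4 at least 1.5-fold lower, which had 5 windows. CCAAT was in 4 of 10 windows of the higher genes and 2 of 5 of the lower, and GGCGCC in 4 of 10 and 0 of 5, too few to be compared. A match is a description of letters and not a bound site.

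The windows of the genes with the highest and the lowest ratio are shown 5′ to 3′ along the gene, with matches to these motifs in capitals. Kpna2 has 2 CCAAT matches, and Nup50 has 2, of which 1 reads ATTGG, beside 2 matches to CGCATGCG.
Kpna2 (chr11:106999476-106999775, minus strand, GRCm38.p6): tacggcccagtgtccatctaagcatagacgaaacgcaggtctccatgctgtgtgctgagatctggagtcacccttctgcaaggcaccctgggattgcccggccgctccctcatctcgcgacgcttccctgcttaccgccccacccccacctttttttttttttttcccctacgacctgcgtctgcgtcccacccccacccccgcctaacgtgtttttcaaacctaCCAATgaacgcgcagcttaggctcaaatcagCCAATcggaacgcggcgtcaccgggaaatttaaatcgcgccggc
Nup50 (chr15:84923178-84923477, plus strand, GRCm38.p6): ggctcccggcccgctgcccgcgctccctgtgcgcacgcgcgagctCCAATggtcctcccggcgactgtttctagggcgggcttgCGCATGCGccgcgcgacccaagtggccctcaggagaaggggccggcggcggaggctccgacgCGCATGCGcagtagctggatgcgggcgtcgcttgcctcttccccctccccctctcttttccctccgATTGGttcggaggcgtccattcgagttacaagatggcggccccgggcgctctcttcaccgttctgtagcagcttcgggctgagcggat

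The size of the difference depended on the processing, and its sign for the group as a whole did not in the settings tried. The median of the transport genes lay between 0.41 and 0.77, above that of all genes in each setting, by 0.40 to 0.69 log2 units. At least 1.5-fold calls in the same direction were kept in all 9 settings that used both arrays by Kpna2, Nup153, Ran, Nup85, Xpo1, Xpo7, Cse1l, Kpna3, Nup133 and Tnpo3, which were higher, and by Tnpo1 and Nup50, which were lower. The 9 include the setting as reported, and the deposited ratios and the processed signals hold nearly the same values. Both changes of the detection filter left the values of these genes unchanged. Averaging could not alter a gene with 1 tested probe. The 9 are therefore not separate checks. Kpna4, Kpna1, Nup35, Nup160, Ranbp2, Kpnb1, Ipo4 and Nup210 each lost the call in at least 1 setting. Nup93, Nup43, Nup37, Rangap1, Kpna6, Ranbp1, Ipo5, Xpot and Nup155 gained a call as higher in at least 1 setting, and Xpo5 as lower. The shares of all genes tested moved as well. At least 1.5-fold higher were 13.2% as reported, 22.94% with processed signals, 24.82% with median centring and 8.173% with all spots in the background fit. Lower were 19.5%, 25.31%, 12.69% and 7.306% in the same order.

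**Figure D5:**
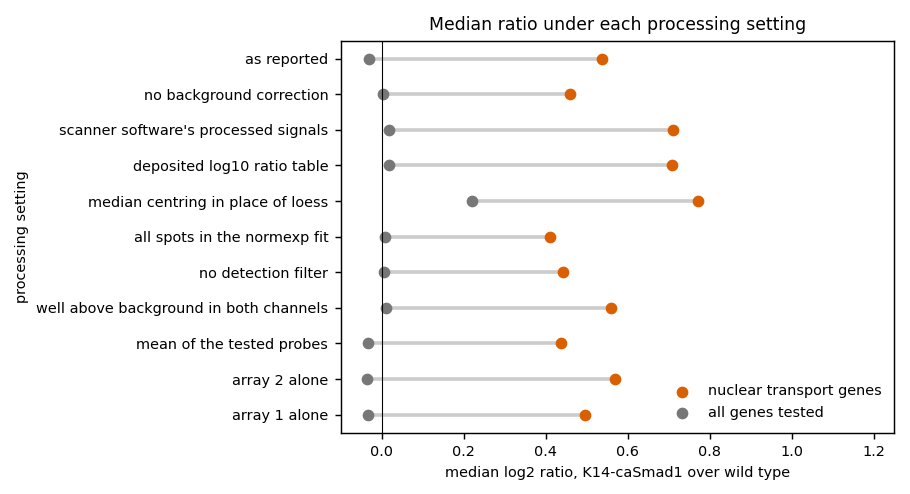
Median log2 ratio of K14-caSmad1 over wild type (horizontal axis) of the nuclear transport genes and of all genes tested under each processing setting (vertical axis). The transport genes lie to the right of all genes in every setting shown, from 0.41 with all spots in the background fit to 0.77 with median centring.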

How the data were processed

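RNA of K14-caSmad1 and wild-type keratinocytes was hybridised to 2 two-colour arrays on 1 slide. Per the file headers, Agilent Feature Extraction 10.5.1.1 produced the deposited scanner output, which holds unnormalized mean and background intensity per spot and channel, beside processed signals. The deposited table of the series holds log10 ratios of Cy5 over Cy3, which matched the scanner's processed signals with a correlation of 0.999996 and had medians of 0.023 and -0.01 on replicates 1 and 2.

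Background was corrected with limma 3.58.1 (normexp, offset 50) on R 4.3.3, after 36 spots on a non-uniform background on replicate 1 were left out. Log2 ratios were normalized by loess (span 0.3) within each array, outlier spots were left out and repeated spots averaged. A probe was tested if well above background on both arrays in at least 1 channel, and a gene was its brightest tested probe. Names were updated through RefSeq: accessions named 24844 probes, symbols 6045 and synonyms 1810, and the file's name stayed for 8475. A gene with 1 channel dim on both arrays has a lower bound ("at least") instead of a fold, after Aquantile scaling between arrays, and such bounds are open to dye bias. The number of arrays limits the precision. The fit was also run on simulated ratios with known changes and independent noise. Such ratios hold no dye effect and no difference between animals, so the run does not bear on either.

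Genes named are those past 1.5-fold in 1 direction on both arrays, the Ran cycle and Cse1l, genes with probes on both sides of 0 by over 0.25, the 3 nearest to 0, and up to 3 of each related list past 1.5-fold; other transport genes are named for completeness. A gene that this rule names is not reported here. The genes, lists and tests were chosen with earlier results of these data known. Alternatives covered background correction, normalization, the filter, the choice of probe and leaving out either array.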

Additional observations from a re-analysis of the deposited data

How the results depend on the processing

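Under the alternatives the count of transport genes at least 2-fold different on both arrays, 5 as reported, was 12 from either the deposited ratios or the processed signals and 11 (all higher) with median centring in place of loess. Of all genes, 4.09% were 2-fold higher and 9.81% lower as reported, against 10.68% and 15.95% with processed signals and 9.448% and 6.903% with median centring. The limma count, 37 as reported, was 21 with all spots in the background fit, where the share of all genes called was 27.79%, against 87.13% as reported. The median log2 ratio of the transport genes, 0.54 as reported, was 0.46 without background correction, 0.71 with processed signals and 0.71 with the deposited ratios, 0.77 with median centring, 0.41 with all spots in the background fit, 0.44 without a detection filter and 0.44 with the mean of the tested probes. Median centring moved the median of all genes to 0.22, and relative to it the transport genes stood 0.55 higher. On either array alone 4 were higher and 1 lower at 2-fold. Of all genes, 4.511% were higher and 10.36% lower on array 1, and 4.656% and 10.37% on array 2. At 1.5-fold 16 were higher and 5 lower on array 1, against 14.43% and 20.55% of all genes. On array 2 alone 20 were higher and 5 lower, against 14.55% and 20.63%. The median was 0.50 on array 1 and 0.57 on array 2. The median of the FG and peripheral nucleoporins, -0.02 as reported, changed sign without background correction (0.011), with processed signals (0.062), deposited ratios (0.065), median centring (0.28), all spots in the background fit (0.014) and the mean of probes (0.0019). The mean of probes also turned the median of the importin betas to -0.26 and Kpnb1 to -0.26. The causes were not tested. Over all genes, 1551 were at least 1.5-fold higher and 2291 lower as reported, against 2916 and 1491 with median centring and 961 and 859 with all spots in the background fit. No paired analysis was possible because each array already holds both groups and gives 1 ratio per probe. With no dye swap, 1 slide and arrays that repeat each other within spot noise on single-spot probes, neither a dye effect nor the spread between animals can be measured, and 7 of 47 genes were too dim to be read.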
